A study of Mus musculus with 16 samples.

Results

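The genes described here code for the receptors of glutamate, GABA (gamma-aminobutyric acid) and glycine, the amino acids that carry most fast signalling between neurons. They were found by symbol in the deposited count table, as every gene of the AMPA (Gria), kainate (Grik), NMDA (Grin), delta (Grid), metabotropic glutamate (Grm), GABA-A (Gabr), GABA-B (Gabbr) and glycine (Glr) receptor families. The rule found 52 of the 37991 genes in the table. They comprise 16 GABA-A subunits and 3 of the rho type, 8 metabotropic glutamate receptors, 7 NMDA, 5 kainate, 5 glycine, 4 AMPA, 2 delta and 2 GABA-B receptor genes.

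Most of these proteins are subunits that assemble into channels opened by the transmitter. AMPA, kainate and NMDA receptors let cations in and excite the cell, whereas GABA-A and glycine receptors conduct chloride. Metabotropic glutamate receptors and GABA-B receptors signal through G proteins. Neural stem cells, radial glia and glial progenitors also carry several of them, and ambient GABA and glutamate are known to act on the division of such cells before synapses form.

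The 16 libraries follow mouse fibroblasts that were treated with small molecules to obtain neural stem-like cells. The starting cells (D0, 2 libraries) were tdMEFs, embryonic fibroblasts on a mixed 129xC57BL6 background that carry Fsp1-Cre and a ROSA26 tdTomato reporter, so that the red protein marks cells in which the Fsp1 promoter was once active. Treated cells came from day 4, day 8 and day 12 (D4, D8 and D12, 3 libraries each) of M9 medium at 5% oxygen. M9 holds CHIR99021, LDN193189, A83-01, Hh-Ag1.5, retinoic acid, SMER28, RG108, Parnate and bFGF, and all treated groups received every component. The induced neural stem cell-like cells (ciNSLC, 3 libraries) came from the same tdMEFs after reprogramming. Their sample descriptions carry different codes, which the labels do not explain, and the labels do not say whether they are clones. The neural controls have 1 library each. SCR029 is a commercial line of cortical neural stem cells from C57BL6 embryos, and priNPC are primary cortical progenitors of the 129xC57BL6 background. Replicate 1 of each group and SCR029 were in the batch named first in the labels (batch 1), and the others in batch 2.

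Library totals ran from 29413932 to 55471129 counts, of which mitochondrial rRNA took 14.3% to 53.0% and the receptor genes 0.0109% to 0.0936%. Levels are CPM, counts relative to library size after scaling by edgeR's trimmed mean of M values (TMM), in replicate order. Fibroblast markers (10 genes) summed to 23045 and 28416 CPM at D0, between 1462 and 11945 CPM from D4 to D12, and 27.8, 50.2 and 147 CPM in ciNSLC. Neuron markers (9 of 10 found) had low sums throughout, of 17.2 to 94.6 CPM up to D12, 28.4 to 48.2 CPM in ciNSLC, 17.6 CPM in SCR029 and 98.6 CPM in priNPC. Their members moved in different directions. Of the 9, 4 were called higher and 2 lower in ciNSLC than at D0, where 28.2% of all genes were called. Stmn2 was 21.2 and 6.62 CPM at D0 and at most 1.42 CPM in ciNSLC. Dcx was 8.64, 11.7 and 38.4 CPM in ciNSLC and at most 5.93 CPM up to D12. Nefl was 79.1 CPM in D4 replicate 1. The neuronal splicing factor Rbfox3 lay between 0 and 0.925 CPM in every library except priNPC, at 7.49 CPM. Neural stem cell markers (9 of 10 found) summed to 4623 to 6624 CPM in ciNSLC and 4962 and 5286 CPM in the controls. Up to D12 the sum was 1555 to 3398 CPM. Most of each sum was Vim and Fabp7. Vim was 1132 to 2684 CPM up to D12 and 1220 to 2356 CPM in ciNSLC. Fabp7 was at most 851 CPM up to D12 and 2163 to 3525 CPM in ciNSLC. Prom1 was at least 24 CPM at D4 and D8 and at most 7.92 CPM in ciNSLC. Of the 9, 8 were called higher and 0 lower in ciNSLC than at D0. Against D12, 6 were called higher and 1 lower, where 27.5% of all genes were called. The summed oligodendrocyte lineage markers (10 genes) were 1167 to 1188 CPM in ciNSLC against 114 to 341 CPM up to D12, and the astrocyte markers (8 genes) 508 to 1557 CPM against 87.9 to 288 CPM. The members of these lists did not move together. Olig1 (783 to 917 CPM) and Olig2 (231 to 362 CPM) made up nearly all of the first sum in ciNSLC, while Pdgfra was 4.49 to 7.31 CPM there against 88.3 to 287 CPM up to D12, and the myelin genes Mog and Mag were at 0. The astrocyte gene Gja1 was 38.2 to 113 CPM in ciNSLC against 78.9 to 260.2 CPM up to D12. The part of these cell types in the receptor levels was not tested, and in bulk samples fewer cells of a type and less RNA per cell cannot be told apart.

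Several libraries stood apart from their groups. Of the 37 receptor genes that were tested, ciNSLC replicate 3 lay at least 4-fold below both other ciNSLC libraries for 11 (among them Gria1, Gria4, Gabra4, Gabrb1, Grin2a, Grin3a, Grid1, Grik2 and Grm3) and above both for 0. Its astrocyte marker sum was 508 CPM, against 1557 and 1368 CPM. D12 replicate 1 lay at least 4-fold above the others for Grin2a, Grm3, Grm5 and Grm8 and below them for Gabre and Grin2d, with an oligodendrocyte marker sum of 291 CPM against 148 and 147 CPM. D8 replicate 1 was apart for 8 genes (5 higher, 3 lower) and D4 replicate 1 for 4 (2 and 2). D0 replicate 2 held 3301 CPM of myeloid markers (11 of 12 found) against 11.8 CPM in replicate 1, and was 5.77-fold higher for Gria1 and 7.15-fold higher for Gabrb1. Genes 4-fold apart were counted among the receptor genes only. Whether these libraries stood apart as much over all genes was not examined. The part of these differences in the results was not tested. Values are therefore given for every library.

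Of the 52 genes, 37 had enough counts for the test, and 30 of these passed it in at least 1 of 8 comparisons. The test was edgeR's quasi-likelihood F-test with Benjamini-Hochberg adjustment over all genes, and a gene was called at an adjusted p under 0.05. Nothing in the labels ties each replicate to a culture of its own, and the p-values measure only how these libraries vary, which may be technical. The controls are an exception. SCR029 and priNPC are unlike sources, a commercial line and primary cells, but were tested as 1 group. Their spread is therefore not replicate variation alone, and source and replicate cannot be separated with 1 library each.

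**Figure D1:**
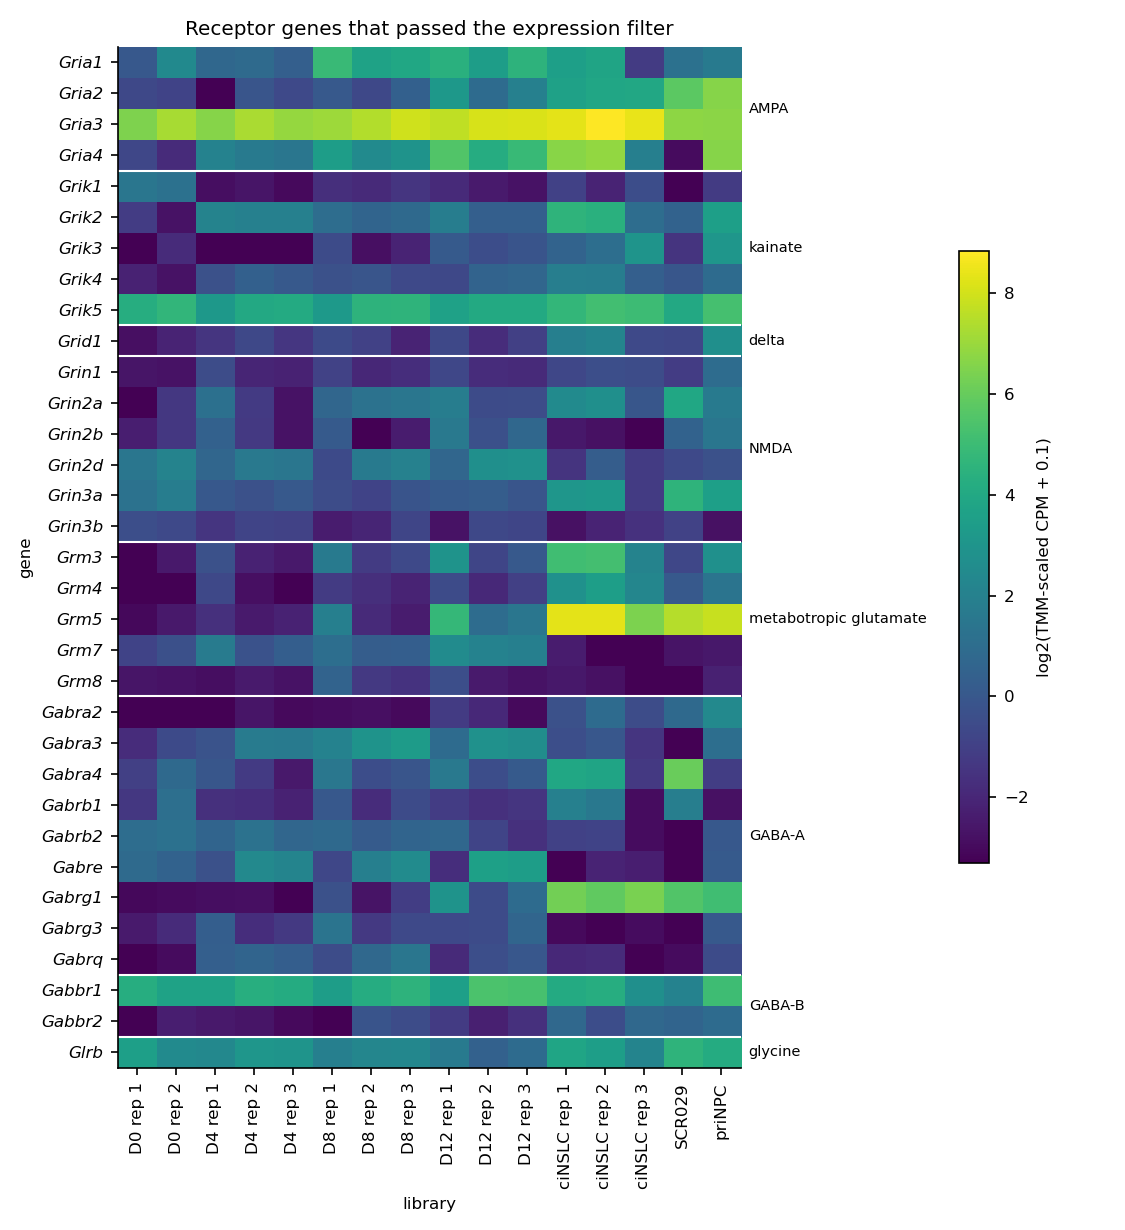
Level of 33 receptor genes that passed the expression filter (rows, by family) in the 16 libraries (columns), as log2 of TMM-scaled CPM plus 0.1, with lighter colour for higher levels. Gria3 is light in every library, from 90.5 CPM in D0 replicate 1 to 458 CPM in ciNSLC replicate 2, and Grm5 and Gabrg1 turn from dark to light between D0 and ciNSLC.

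After 4 days of treatment few receptor genes had moved. Of 37 tested, 3 were called higher and 1 lower (10.8%), where 7.22% of all genes were called (3.54% higher and 3.68% lower). The median log2 change of the 37 was 0.14, against 0.02 over all genes. At D8 4 genes were higher and 1 lower than at D0, with 7.15% of all genes called (4.1% higher and 3.05% lower), and the median was 1.62 against 0.02. At D12 9 were higher and 2 lower, with 10.5% of all genes called (5.81% higher and 4.73% lower), and the median was 2.26 against 0.01. All 3 comparisons share the D0 libraries. Between D4 and D12, 4 genes were higher and 0 lower, with 3.87% of all genes called (2.5% higher and 1.36% lower).

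The stem-like cells differed from day 12 in more members. Against D12, 12 receptor genes were higher and 7 lower in ciNSLC (51.4%), where 27.5% of all genes were called (11% higher and 16.5% lower), and the median log2 change was 1.28 against -0.09 over all genes. Against D0, 17 were higher and 5 lower (59.5%), where 28.2% of all genes were called (11.7% higher and 16.5% lower), with a median of 1.64 against -0.07. The neural controls, SCR029 and priNPC taken as 1 group despite their different sources, had 15 higher and 2 lower than D0 (45.9%). There 23.9% of all genes were called (10.1% higher and 13.8% lower), and the median was 2.62 against -0.02. Between ciNSLC and the controls 1 gene passed the test and was higher in ciNSLC, with 1.53% of all genes called (0.879% higher and 0.652% lower). At an unadjusted p under 0.05 there were 6.

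The counts of calls in the small comparisons depended on single libraries. For D4 against D0 the count of 4 was 2 without D0 replicate 1, 1 without D0 replicate 2 and 7 without ciNSLC replicate 3. For D8 the count of 5 was 1 and 3 without D0 replicates 1 and 2, 3 without D8 replicate 1 or 2 and 9 without ciNSLC replicate 3. For D12 the count of 11 was 3 and 2 without D0 replicates 1 and 2 and 7 without D12 replicate 2 or 3. For D12 against D4 the count of 4 was 0 without D4 replicate 2 or 3, 1 without D12 replicate 3 or ciNSLC replicate 1 or 2, 2 without D4 replicate 1, D8 replicate 3 or D12 replicate 1, and 7 without ciNSLC replicate 3. The fit with the replicate block called 7 genes for D12 against D4, of which 3 were among the 4. Gria2 was the exception, with an adjusted p of 0.051. The larger comparisons moved less. The count of 22 for ciNSLC against D0 was 13 without D0 replicate 1, the count of 19 for ciNSLC against D12 was 12 without D12 replicate 2, 11 without D12 replicate 3 and 12 without ciNSLC replicate 1, and the count of 17 for the controls against D0 was 8 and 10 without D0 replicates 1 and 2.

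**Figure D2:**
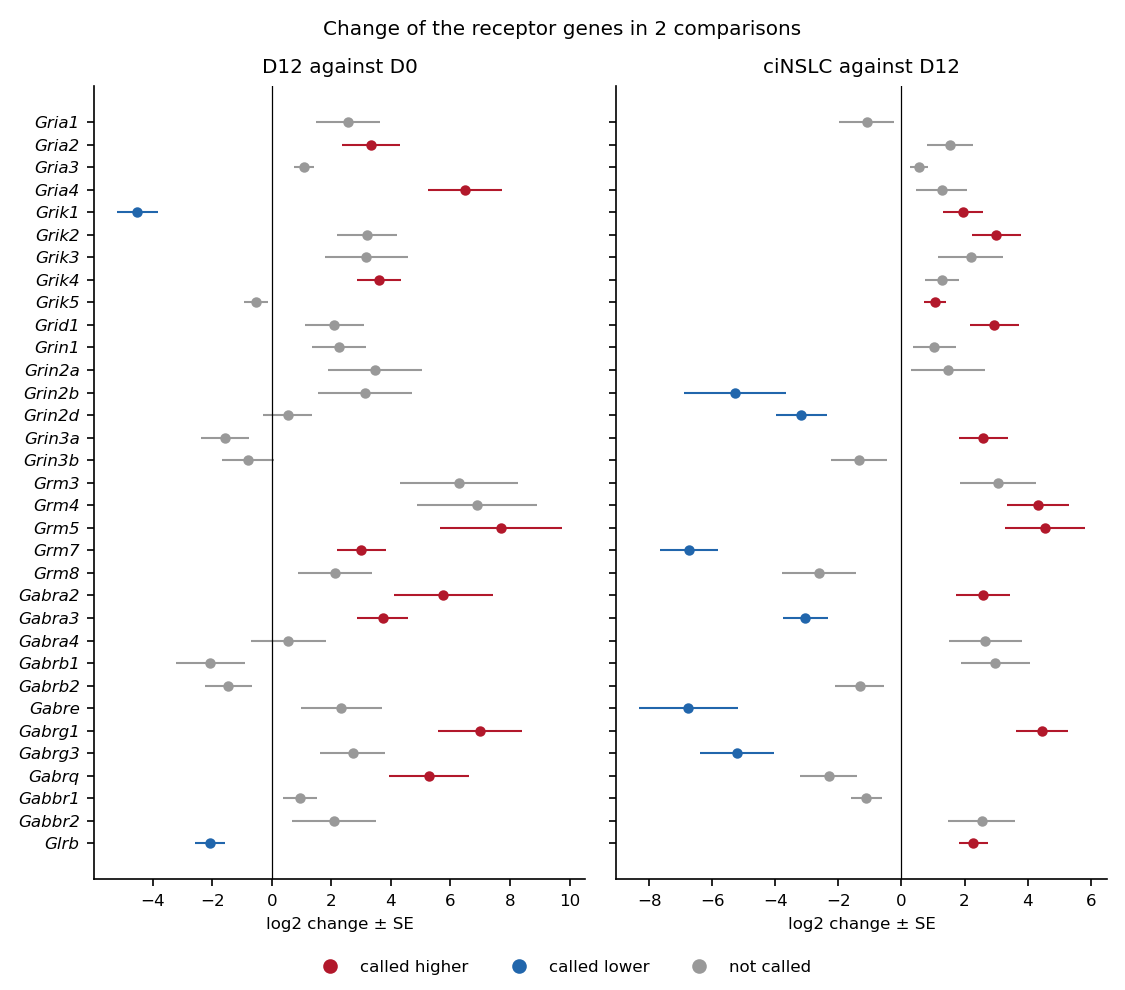
Fitted log2 change (points) with its standard error (bars) of 33 receptor genes at D12 against D0 (left, 9 called higher and 2 lower) and in ciNSLC against D12 (right, 10 higher and 6 lower). Grik1, Grm7, Gabra3 and Glrb are called in opposite directions in the 2 panels, which share the D12 libraries.

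The sum over all 52 genes was higher on later days. It was 166 and 232 CPM at D0, 168, 243 and 197 at D4, 254, 286 and 387 at D8 and 409.9, 431 and 461 at D12. In ciNSLC it was 1121, 1284 and 631 CPM, beside 634 CPM in SCR029 and 808 CPM in priNPC. Every D12 library lay above every D0 library, and every ciNSLC and control library above D12. Without Gria3 and Grm5 the sums were 75.3 and 81.4 CPM at D0, 178, 149 and 178 at D12, 474, 499.9 and 198 in ciNSLC, 347 in SCR029 and 479 in priNPC. No test was run on these sums.

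AMPA receptors carry most fast excitation in the brain, as tetramers of the products of Gria1 to Gria4. Whether they pass calcium depends on Gria2, whose RNA is edited in the segment that lines the pore. The codon for glutamine there is changed to one read as arginine. The coding sequence of this segment follows for the AMPA genes and for Grik1 and Grik2, 2 kainate genes whose RNA is known to be edited at the same codon, since the genomic codon alone does not set the edited genes apart. Capitals mark bases 25 to 27 of each 51-base stretch, the glutamine codon. The sequences were read from GENCODE M21 transcripts of the GRCm38 build, and all transcripts of a gene that hold the segment had the same bases.
Gria1: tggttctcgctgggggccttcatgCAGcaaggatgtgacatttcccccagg
Gria2: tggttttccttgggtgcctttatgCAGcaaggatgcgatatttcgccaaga
Gria3: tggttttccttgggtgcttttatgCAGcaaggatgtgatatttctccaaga
Gria4: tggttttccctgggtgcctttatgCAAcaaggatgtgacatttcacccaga
Grik1: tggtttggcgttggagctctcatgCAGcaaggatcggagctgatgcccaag
Grik2: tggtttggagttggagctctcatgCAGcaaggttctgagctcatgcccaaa
Gria3 differs from Gria2 at 3 of these bases, Gria4 at 6, Gria1 at 10, Grik1 at 18 and Grik2 at 19. The codon itself is CAA in Gria4 and CAG in the others. Gene counts do not show whether the RNA was edited.

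Gria3 was the most abundant AMPA subunit mRNA per kilobase in every D0 and every ciNSLC library. The gene lies on the X chromosome (mm9 X:38754031-39031778, plus strand). Its level was 90.5 and 151 CPM at D0, 100.4, 157 and 120.2 at D4, 131, 172 and 247 at D8 and 205, 279.5 and 281 at D12. It was 324, 458 and 346 CPM in the ciNSLC libraries, 109.8 in SCR029 and 105 in priNPC. All D12 libraries exceeded all D0 libraries, and all ciNSLC libraries exceeded all others. It was called higher in ciNSLC than at D0 (log2 change 1.64, SE 0.35, adjusted p = 0.0035), and not at D12 (log2 change 1.08, SE 0.34, adjusted p = 0.063). It was also the only receptor gene called between ciNSLC and the controls, at log2 1.81 (SE 0.34, adjusted p = 0.019). The controls lay within the range of D0, with a log2 difference from D0 of -0.17 (adjusted p = 0.78).

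Gria4 rose during treatment. It was 0.500 and 0.182 CPM at D0, 4.14, 3.13 and 2.61 at D4, 10.7, 5.58 and 7.58 at D8 and 46.8, 18.4 and 28.8 at D12. The groups did not overlap from D0 to D12. Its log2 change from D0 was 4.50 (SE 1.15, adjusted p = 0.034) at D8 and 6.48 (SE 1.24, adjusted p = 0.0067) at D12. In the lines it was 104, 119 and 3.69 CPM in the ciNSLC libraries, 0.0284 in SCR029 and 100.1 in priNPC. The third ciNSLC library and SCR029 therefore lay far below the other neural libraries, SCR029 being below the fibroblasts. Against D0 the log2 change in ciNSLC was 7.75 (SE 1.31, adjusted p = 0.00075). For the controls it was 7.16 (SE 2.12, adjusted p = 0.025), with -2.22 within batch 1 and 8.47 within batch 2.

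Gria2 rose later. It was 0.521 and 0.443 CPM at D0, 0, 0.812 and 0.533 at D4, 0.957, 0.527 and 1.24 at D8 and 9, 1.79 and 3.87 at D12. All D12 libraries were above all earlier ones, replicate 1 the most. The log2 change was 3.33 (SE 0.96, adjusted p = 0.044) against D0 and 3.37 (SE 0.82, adjusted p = 0.04) against D4, where the call was lost with the replicate number as a block (adjusted p = 0.051). In the lines it was 12.2, 14.6 and 15.8 CPM in the ciNSLC libraries, 54.6 in SCR029 and 100.2 in priNPC. The 3 ciNSLC libraries agreed closely and lay below both controls, with a log2 change from D0 of 4.87 (SE 1.03, adjusted p = 0.0035) for ciNSLC and 7.31 (SE 1.09, adjusted p = 0.00034) for the controls. The difference between ciNSLC and the controls was -2.45 (SE 0.74, adjusted p = 0.14) and was not called.

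Gria1 was not called in any comparison. It was 0.916 and 5.29 CPM at D0, 1.54, 1.73 and 1.19 at D4, 30.6, 12.6 and 15.2 at D8 and 20.8, 10.7 and 23.2 at D12. All D8 and D12 libraries lay above all D0 and D4 libraries, with log2 changes from D0 of 2.65 (SE 1.08, adjusted p = 0.17) at D8 and 2.56 (SE 1.07, adjusted p = 0.16) at D12. It was 11.4, 13.8 and 0.339 CPM in the ciNSLC libraries, 2.22 in SCR029 and 3.10 in priNPC. The ciNSLC libraries ranged from 0.339 to 13.8 CPM.

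Single libraries carried several AMPA calls. Gria4 was no longer called at D8 without D0 replicate 1 or 2 or D8 replicate 1, 2 or 3 (adjusted p from 0.055 to 0.2), at D12 without D0 replicate 2 (adjusted p = 0.067) and in the controls without D0 replicate 1 or 2 or priNPC (adjusted p from 0.11 to 0.35). Gria2 at D12 was lost against D0 without D0 replicate 1 or 2, D4 replicate 3, D8 replicate 2 or 3, D12 replicate 1 or 3 or ciNSLC replicate 1, 2 or 3 (adjusted p from 0.055 to 0.2) and against D4 without D4 replicate 2 or 3, D8 replicate 2 or 3, D12 replicate 1 or 3 or ciNSLC replicate 1, 2 or 3 (adjusted p from 0.051 to 0.13). Gria3 was lost against D0 in ciNSLC without D0 replicate 1 (adjusted p = 0.053) and against the controls without ciNSLC replicate 2, SCR029 or priNPC (adjusted p from 0.068 to 0.071).

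**Figure D3:**
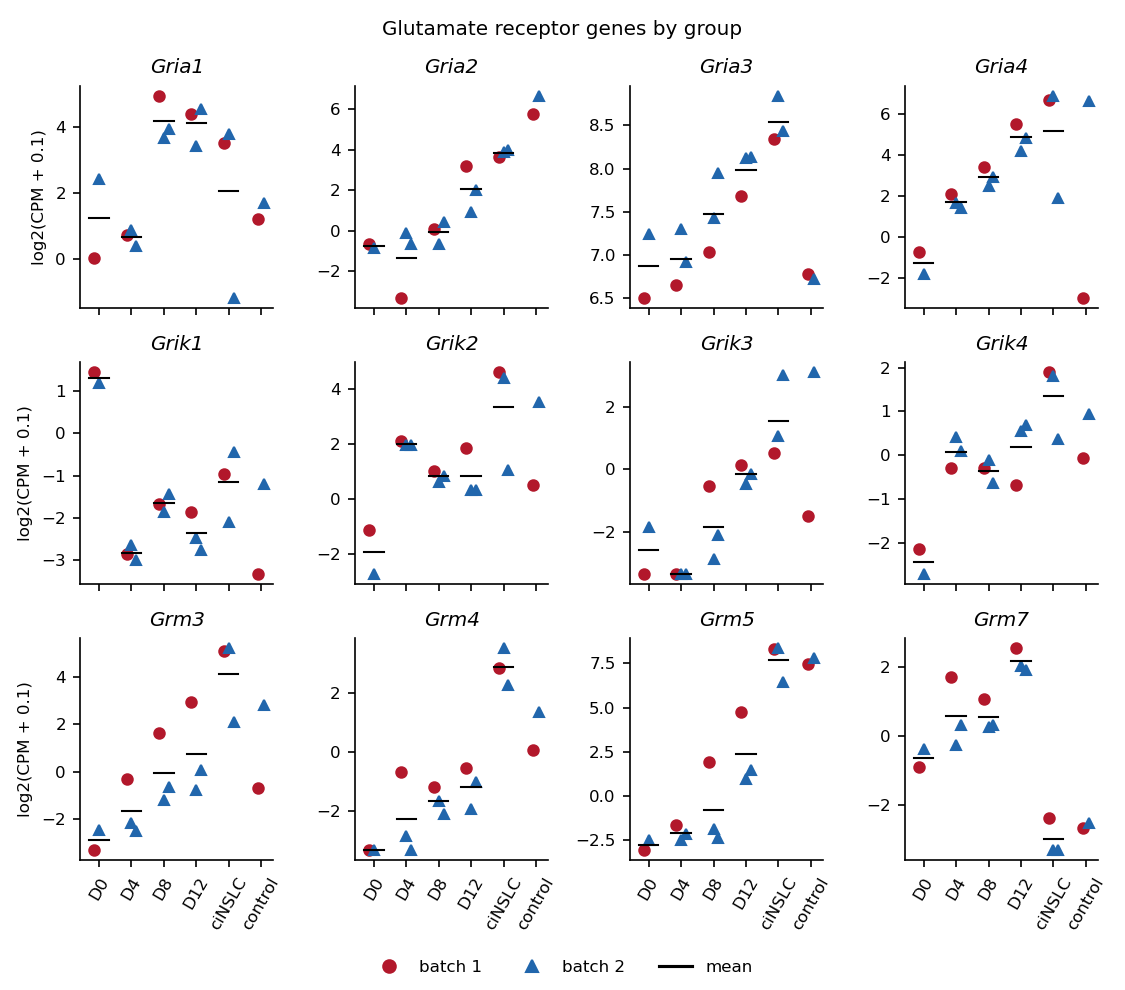
Level of 12 glutamate receptor genes by group, as log2 of TMM-scaled CPM plus 0.1, with 1 point per library (circles batch 1, triangles batch 2) and the mean of each group with replicates (line). Gria2 and Grm5 climb from D0 to ciNSLC, Gria4 climbs to D12 and then splits between ciNSLC libraries, Grik1 drops after D0, and Grm7 peaks at D12 with 5.78, 4.05 and 3.68 CPM before falling to at most 0.0929 CPM in ciNSLC.

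Per kilobase of exon, which allows genes of different length to be set side by side, Gria3 made up 96.8% and 94.1% of the AMPA subunit level at D0 and 91.7%, 94.6% and 94.6% at D4. At D12 its share was 63.1%, 85.1% and 76.0%, with Gria4 at 22.6%, 8.82% and 12.3%. In ciNSLC Gria3 held 62.0%, 66.6% and 92.3% and Gria4 31.2%, 27.1% and 1.55%. The share of Gria2 was 3.30%, 3.01% and 5.98% in ciNSLC, against 40.6% in SCR029 and 34.7% in priNPC. It was at most 3.92% in every library up to D12. The lowest control share was thus above every ciNSLC share, with 1 library per control and no test.

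**Figure D4:**
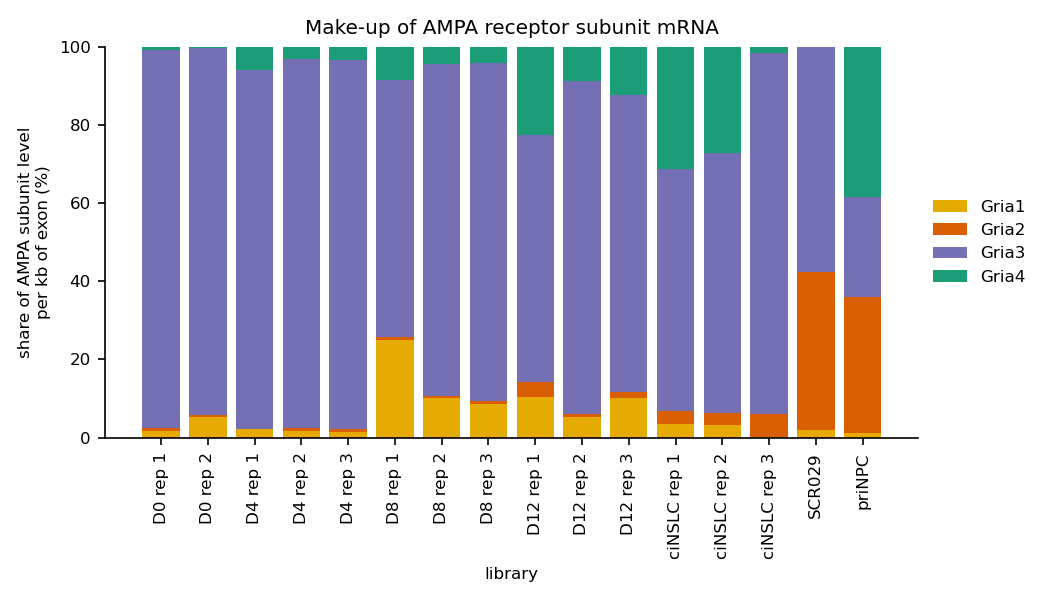
Share of each AMPA subunit gene in the summed level of the 4 genes per kilobase of exon (percent, stacked bars) in each library. Gria2 takes 40.6% and 34.7% in SCR029 and priNPC and at most 5.98% in every other library.

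The kainate receptor genes code for channels of the related GluK family, in which the Grik4 and Grik5 products need a partner from Grik1 to Grik3. Of the 5 genes, 2 were higher and 1 lower at D4, 1 higher and 1 lower at D8 and at D12, and 3 higher and 0 lower in ciNSLC than at D12. Of all genes tested, 7.22%, 7.15%, 10.5% and 27.5% were called in these comparisons. Grik1 and Grik2 moved in opposite directions within 4 days. Grik1 was 2.62 and 2.19 CPM at D0, 0.0376, 0.0609 and 0.0254 at D4, 0.216, 0.176 and 0.271 at D8 and 0.176, 0.0815 and 0.0487 at D12. The fall was present in every treated library, with a log2 change of -5.72 (SE 0.75, adjusted p = 0.00086) at D4, -3.43 (SE 0.65, adjusted p = 0.0079) at D8 and -4.52 (SE 0.69, adjusted p = 0.0018) at D12, and these 3 calls held under every alternative tried. Grik1 was 0.418, 0.134 and 0.643 CPM in the ciNSLC libraries, 0 in SCR029 and 0.334 in priNPC. Against D12 it was higher in ciNSLC by a log2 change of 1.95 (SE 0.64, adjusted p = 0.038), although the libraries of these groups overlapped, and its log2 change from D0 was -2.57 (SE 0.63, adjusted p = 0.0081). In the controls the change from D0 was -3.79 (SE 1.09, adjusted p = 0.021).

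Grik2 was 0.354 and 0.0521 CPM at D0, 4.22, 3.78 and 3.83 at D4, 1.95, 1.42 and 1.67 at D8 and 3.52, 1.17 and 1.17 at D12. All D4 libraries stood above both D0 libraries, with a log2 change of 4.21 (SE 1.03, adjusted p = 0.028). It was 24.2, 21.0 and 1.96 CPM in the ciNSLC libraries, 1.33 in SCR029 and 11.5 in priNPC. Replicates 1 and 2 of ciNSLC were the highest of all, and the log2 change was 6.21 (SE 1.12, adjusted p = 0.0012) from D0 and 3.01 (SE 0.78, adjusted p = 0.013) from D12, and 4.92 (SE 1.25, adjusted p = 0.011) from D0 in the controls. Replicate 3 lay within the range of D12.

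Grik4 rose at D4 and stayed up. It was 0.125 and 0.0521 CPM at D0, 0.715, 1.24 and 0.964 at D4, 0.710, 0.819 and 0.541 at D8 and 0.528, 1.36 and 1.51 at D12. The log2 change was 3.39 (SE 0.73, adjusted p = 0.014) at D4, 2.89 (SE 0.72, adjusted p = 0.03) at D8 and 3.60 (SE 0.73, adjusted p = 0.0088) at D12. It was 3.62, 3.43 and 1.18 CPM in the ciNSLC libraries, 0.852 in SCR029 and 1.81 in priNPC. The change from D0 was 4.88 (SE 0.76, adjusted p = 0.00043) in ciNSLC and 3.84 (SE 0.78, adjusted p = 0.003) in the controls.

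Grik3 was 0 and 0.182 CPM at D0, 0, 0 and 0 at D4, 0.587, 0.0390 and 0.135 at D8 and 1.01, 0.625 and 0.804 at D12. No count was found at D4, so D12 was at least 31.3-fold higher, against a floor of 3 counts over the D4 group (adjusted p = 0.041). It was 1.35, 2.00 and 7.85 CPM in the ciNSLC libraries, 0.256 in SCR029 and 8.42 in priNPC, and here ciNSLC replicate 3 was the highest of its group. The log2 change from D0 was 5.38 (SE 1.48, adjusted p = 0.019) in ciNSLC and 5.60 (SE 1.83, adjusted p = 0.044) in the controls.

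Grik5 was the steadiest member of the family. It was 18.7 and 25.2 CPM at D0, 8.73, 16 and 17.3 at D4, 9.33, 23.3 and 24.1 at D8 and 12.3, 16.7 and 16.8 at D12. It was 26.7, 36.2 and 32.6 CPM in the ciNSLC libraries, 16 in SCR029 and 38.0 in priNPC. All ciNSLC libraries exceeded all libraries up to D12, narrowly so for D0, and the log2 change from D12 was 1.06 (SE 0.35, adjusted p = 0.04). Per kilobase it was the highest kainate gene in ciNSLC, at 6.96, 9.43 and 8.51 CPM per kb, against 2.92, 2.53 and 0.237 for Grik2.

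Several kainate calls depended on 1 library. Grik2 at D4 was lost without D0 replicate 1 or 2 or D4 replicate 1, 2 or 3 (adjusted p from 0.051 to 0.17), and in ciNSLC against D12 without D12 replicate 2 or 3 (adjusted p = 0.061). Grik4 was lost at D4 without D0 replicate 2 (adjusted p = 0.12), at D8 without D0 replicate 1 or 2 or D8 replicate 1 or 2 (adjusted p from 0.054 to 0.19) and at D12 without D0 replicate 2 (adjusted p = 0.082). Grik3 at D12 against D4 was lost without D4 replicate 1, 2 or 3, D8 replicate 3, D12 replicate 1, 2 or 3 or ciNSLC replicate 1 or 2 (adjusted p from 0.05 to 0.13), in ciNSLC against D0 without D0 replicate 1 (adjusted p = 0.098) and in the controls without D0 replicate 1 or 2, D8 replicate 3, D12 replicate 2 or 3, ciNSLC replicate 2 or priNPC (adjusted p from 0.054 to 0.58). Grik1 in ciNSLC against D12 was lost without D0 replicate 1, D12 replicate 2 or 3 or ciNSLC replicate 1 or 3 (adjusted p from 0.052 to 0.15), and Grik5 without D4 replicate 2, D12 replicate 1, 2 or 3 or ciNSLC replicate 1, 2 or 3 (adjusted p from 0.051 to 0.1). In the controls against D0, Grik1 was lost without D0 replicate 1 or 2 or SCR029 (adjusted p from 0.051 to 0.067) and Grik2 without D0 replicate 2 or priNPC (adjusted p from 0.097 to 0.13).

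The delta receptor genes code for relatives of these channels that bind cerebellins and organise synapses. Grid1 was 0.0417 and 0.130 CPM at D0, 0.264, 0.528 and 0.279 at D4, 0.556, 0.410 and 0.135 at D8 and 0.528, 0.190 and 0.390 at D12. All treated libraries lay above D0, the lowest of them narrowly, and the treated days overlapped. It was 3.72, 4.32 and 0.542 CPM in the ciNSLC libraries, 0.511 in SCR029 and 6.49 in priNPC. It was called higher in ciNSLC than at D0 (log2 change 5.04, SE 1.06, adjusted p = 0.0034) and at D12 (log2 change 2.94, SE 0.78, adjusted p = 0.014), the latter not without D12 replicate 2 or 3 or ciNSLC replicate 2 (adjusted p from 0.051 to 0.067). The log2 change of the controls from D0 was 5.33 (SE 1.32, adjusted p = 0.0097), which was lost without D0 replicate 1 or priNPC (adjusted p from 0.084 to 0.15).

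NMDA receptors need the glycine-binding subunit from Grin1, joined by glutamate-binding Grin2 or glycine-binding Grin3 subunits. None of the 6 tested NMDA genes was called at D4, D8 or D12 against D0, where 7.22%, 7.15% and 10.5% of all genes were called. At an unadjusted p under 0.05 there were 1, 3 and 2, and the share of all genes at that threshold was not counted. Grin1 stayed low, at 0.0625 and 0.0521 CPM at D0, 0.602, 0.142 and 0.127 at D4, 0.432, 0.156 and 0.203 at D8 and 0.503, 0.190 and 0.170 at D12. It was 0.511, 0.667 and 0.609 CPM in the ciNSLC libraries, 0.341 in SCR029 and 1.88 in priNPC. Only priNPC exceeded 1 CPM. The log2 change from D0 was 3.30 (SE 0.93, adjusted p = 0.018) in ciNSLC and 4.20 (SE 1.08, adjusted p = 0.012) in the controls.

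The Grin2 genes differed in direction. Grin2a was 0 and 0.287 CPM at D0, 2.18, 0.325 and 0.0507 at D4, 1.51, 2.26 and 2.62 at D8 and 3.44, 0.598 and 0.609 at D12. It was 5.60, 6.54 and 0.846 CPM in the ciNSLC libraries, 15.3 in SCR029 and 3.01 in priNPC. SCR029 was the highest, and ciNSLC replicate 3 fell within the range of D12. The log2 change from D0 was 4.95 (SE 1.68, adjusted p = 0.043) in ciNSLC and 6.02 (SE 1.80, adjusted p = 0.026) in the controls. Grin2d, a subunit of embryonic and interneuron receptors, was 2.67 and 4.25 CPM at D0, 1.51, 2.92 and 2.66 at D4, 0.556, 3.06 and 4.01 at D8 and 1.51, 6.57 and 7.01 at D12. It was 0.256, 1.11 and 0.339 CPM in the ciNSLC libraries, 0.540 in SCR029 and 0.716 in priNPC. Levels in ciNSLC were below all D0 libraries (log2 change -2.64, SE 0.84, adjusted p = 0.033) and all D12 libraries (log2 change -3.18, SE 0.81, adjusted p = 0.012). Grin2b was 0.104 and 0.287 CPM at D0, 1.28, 0.305 and 0.0507 at D4, 0.988, 0 and 0.0902 at D8 and 2.89, 0.679 and 1.56 at D12, and 0.0697, 0.0445 and 0 CPM in the ciNSLC libraries, 1.33 in SCR029 and 2.65 in priNPC. It was lower in ciNSLC than at D12 (log2 change -5.29, SE 1.62, adjusted p = 0.028), whereas both controls had more than 1 CPM. The difference between ciNSLC and the controls was -5.51 (SE 1.63, adjusted p = 0.13).

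Grin3a was 2.33 and 3.44 CPM at D0, 0.903, 0.711 and 0.939 at D4, 0.618, 0.449 and 0.789 at D8 and 0.980, 1.09 and 0.828 at D12. It was 8.27, 8.90 and 0.339 CPM in the ciNSLC libraries, 24.1 in SCR029 and 11.5 in priNPC. The log2 change of ciNSLC against D12 was 2.59 (SE 0.78, adjusted p = 0.026), with replicate 3 below every D12 library. Grin3b stayed at or below 0.666 CPM in every library and was not called. Among these, the call of Grin3a was lost without D12 replicate 2 or 3 or ciNSLC replicate 1 or 2 (adjusted p from 0.075 to 0.093), that of Grin2b without D12 replicate 1 or 3 or ciNSLC replicate 1, 2 or 3 (adjusted p from 0.053 to 0.089) and that of Grin2d against D12 without ciNSLC replicate 1 (adjusted p = 0.054). Against D0, Grin2d was lost without D0 replicate 1 or 2 or ciNSLC replicate 1 or 3 (adjusted p from 0.056 to 0.14), Grin2a without D0 replicate 1, D4 replicate 2, D8 replicate 2 or 3 or ciNSLC replicate 1 or 2 (adjusted p from 0.05 to 0.2) in ciNSLC and D0 replicate 1 or SCR029 (adjusted p from 0.11 to 0.14) in the controls, and Grin1 without D0 replicate 1 or 2 (adjusted p from 0.097 to 0.11) and D0 replicate 1 or 2 or priNPC (adjusted p from 0.072 to 0.14).

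Metabotropic glutamate receptors fall into those that raise calcium through Gq, such as Grm5, and those that lower cyclic AMP (Grm2, Grm3, Grm4, Grm6, Grm7 and Grm8). Of the 6 tested, 0 were called at D4 and D8 and 2 were higher at D12. In ciNSLC 4 were higher and 1 lower than at D0. All genes tested were called at 7.22%, 7.15%, 10.5% and 28.2%. Grm5 (mm9 7:94750952-95283417, plus strand), a receptor of astrocytes and immature neural cells, had at most 0.0782 CPM at D0. It was 0.0208 and 0.0782 CPM at D0, 0.226, 0.0812 and 0.127 at D4, 3.64, 0.176 and 0.0902 at D8 and 26.9, 1.87 and 2.68 at D12. The libraries of batch 1 were the highest at D8 and D12. It was 323, 326 and 86.8 CPM in the ciNSLC libraries, 177 in SCR029 and 224 in priNPC. All ciNSLC and control libraries lay above all others, and ciNSLC replicate 3 was the lowest of them.

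The log2 change of Grm5 was 7.71 (SE 2.05, adjusted p = 0.031) at D12 against D0, 6.25 (SE 1.53, adjusted p = 0.041) against D4, and 4.55 (SE 1.26, adjusted p = 0.018) in ciNSLC against D12. From D0 it was 12.26 (SE 2.29, adjusted p = 0.0015) in ciNSLC and 11.96 (SE 2.22, adjusted p = 0.0016) in the controls, and these last 2 calls held under every alternative tried. At D12 it was lost against D0 without D0 replicate 1 or 2 or D12 replicate 1 (adjusted p from 0.055 to 0.19) and against D4 without D4 replicate 1, 2 or 3, D12 replicate 1 or 3 or ciNSLC replicate 1 or 2 (adjusted p from 0.051 to 0.16). For ciNSLC against D12 it was lost without D12 replicate 2 or 3 (adjusted p from 0.066 to 0.072).

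Among the receptors that lower cyclic AMP, Grm3, an astrocyte receptor, and Grm4 were higher in the lines. Grm3 was 0 and 0.0782 CPM at D0, 0.715, 0.122 and 0.0761 at D4, 3.00, 0.332 and 0.541 at D8 and 7.62, 0.489 and 0.950 at D12. It was 34.8, 37.3 and 4.23 CPM in the ciNSLC libraries, 0.511 in SCR029 and 6.89 in priNPC. Batch 1 was the highest on each treated day, and SCR029 lay within the range of D12. The ratio to D0 was 745 (95% counting interval 255 to 3615) in ciNSLC (adjusted p = 0.0051, lost without D0 replicate 1 (adjusted p = 0.054)) and 115 (95% counting interval 38.9 to 559) in the controls (adjusted p = 0.039, lost without D0 replicate 1 or 2 or priNPC (adjusted p from 0.12 to 0.29)). Grm4 was 0 and 0 CPM at D0, 0.527, 0.0406 and 0 at D4, 0.340, 0.215 and 0.135 at D8 and 0.578, 0.163 and 0.390 at D12. It was 7.02, 11.3 and 4.71 CPM in the ciNSLC libraries, 0.937 in SCR029 and 2.48 in priNPC. No count was found at D0, so that ciNSLC was at least 210.2-fold and the controls at least 51.1-fold higher, against 3 counts over the D0 group (adjusted p = 0.0011 and 0.0053). Against D12 the log2 change in ciNSLC was 4.33 (SE 0.99, adjusted p = 0.0074).

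Grm7, a presynaptic receptor of low glutamate affinity, went the other way. It was 0.437 and 0.677 CPM at D0, 3.20, 0.731 and 1.14 at D4, 2.01, 1.09 and 1.15 at D8 and 5.78, 4.05 and 3.68 at D12. All D12 libraries were above all others, with 3.01 (SE 0.82, adjusted p = 0.033) against D0. It was 0.0929, 0 and 0 CPM in the ciNSLC libraries, 0.0568 in SCR029 and 0.0716 in priNPC. The log2 change in ciNSLC was -6.74 (SE 0.91, adjusted p = 0.00019) from D12 and -3.73 (SE 0.93, adjusted p = 0.0091) from D0, and in the controls -3.04 (SE 0.97, adjusted p = 0.035) from D0. The calls in ciNSLC held under every alternative tried, the rise at D12 was lost without D0 replicate 1 or 2 or D12 replicate 1, 2 or 3 (adjusted p from 0.052 to 0.19) and the control call without D0 replicate 1 or 2, SCR029 or priNPC (adjusted p from 0.054 to 0.15). Grm8 was not called in any comparison and exceeded 1 CPM in D8 replicate 1 alone, at 1.36 CPM.

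GABA-A receptors are pentamers, usually of alpha, beta and gamma subunits, and their genes lie in clusters. In the deposited mm9 coordinates, Gabrg1, Gabra2, Gabra4 and Gabrb1 lie between 71142286 and 72529628 on chromosome 5. Gabre, Gabra3 and Gabrq lie between 69501338 and 70087941 on the X chromosome. Of the 11 tested GABA-A genes, 1, 2 and 4 were higher than D0 at D4, D8 and D12 and 0 lower. In ciNSLC 3 were higher and 4 lower than at D12. The calls over all genes tested were 7.22%, 7.15%, 10.5% and 27.5%.

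The chromosome 5 genes Gabrg1 and Gabra2 rose. Gabrg1 was 0.0208 and 0.0261 CPM at D0, 0.0376, 0.0406 and 0 at D4, 0.710, 0.0585 and 0.361 at D8 and 7.57, 0.598 and 1.83 at D12. It was 76.1, 58.0 and 84.6 CPM in the ciNSLC libraries, 46.1 in SCR029 and 34.8 in priNPC. All ciNSLC and control libraries were far above D12, where replicate 1 was the highest. It had 2 counts over both D0 libraries and 7078 over the ciNSLC libraries, a ratio of 3216 (95% counting interval 890.0 to 26563) with an adjusted p of 0.00012. For the controls the ratio was 1725 (95% counting interval 477 to 14250.0) (adjusted p = 0.0002). Between D12 and ciNSLC the log2 change was 4.45 (SE 0.83, adjusted p = 0.0018). These calls held under every alternative tried. The rise at D12 was 146 (95% counting interval 40.2 to 1211) times D0 (adjusted p = 0.0085) and 129.9 (95% counting interval 44.1 to 633) times D4 (adjusted p = 0.009), and was lost without D0 replicate 1 or 2 (adjusted p from 0.068 to 0.075) against D0 and without D4 replicate 2 or 3 (adjusted p from 0.05 to 0.054) against D4.

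Gabra2 was 0 and 0 CPM at D0, 0, 0.0609 and 0.0254 at D4, 0.0309, 0.0390 and 0.0226 at D8 and 0.327, 0.163 and 0.0243 at D12. It was 0.720, 1.82 and 0.609 CPM in the ciNSLC libraries, 1.70 in SCR029 and 5.10 in priNPC. No count was found at D0, so D12 was at least 4.89-fold higher (adjusted p = 0.047), ciNSLC at least 27.3-fold (adjusted p = 0.0022) and the controls at least 102-fold (adjusted p = 0.00075), against a floor of 3 counts over D0. The D12 call was lost without D0 replicate 1 or 2, D4 replicate 2 or 3, D8 replicate 1, 2 or 3, D12 replicate 1 or 2 or ciNSLC replicate 1, 2 or 3 (adjusted p from 0.052 to 0.2). Against D12 the log2 change in ciNSLC was 2.59 (SE 0.85, adjusted p = 0.04), lost without D4 replicate 3, D8 replicate 2 or 3, D12 replicate 2 or 3 or ciNSLC replicate 1 or 2 (adjusted p from 0.053 to 0.15).

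The other chromosome 5 genes were uneven between lines. Gabra4 was 0.396 and 1.69 CPM at D0, 0.866, 0.325 and 0.0761 at D4, 2.72, 0.624 and 0.812 at D8 and 2.97, 0.625 and 0.974 at D12, and 15.2, 13.5 and 0.305 CPM in the ciNSLC libraries, 67.5 in SCR029 and 0.358 in priNPC. SCR029 was the highest and priNPC was below D0 replicate 1. Gabrb1 had at most 2.08 CPM up to D12, in D0 replicate 2, and 3.79, 2.85 and 0.0339 CPM in ciNSLC, 3.52 in SCR029 and 0.0477 in priNPC. Neither was called in any comparison. Among the neural libraries, ciNSLC replicate 3 and priNPC were the lowest for both.

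**Figure D5:**
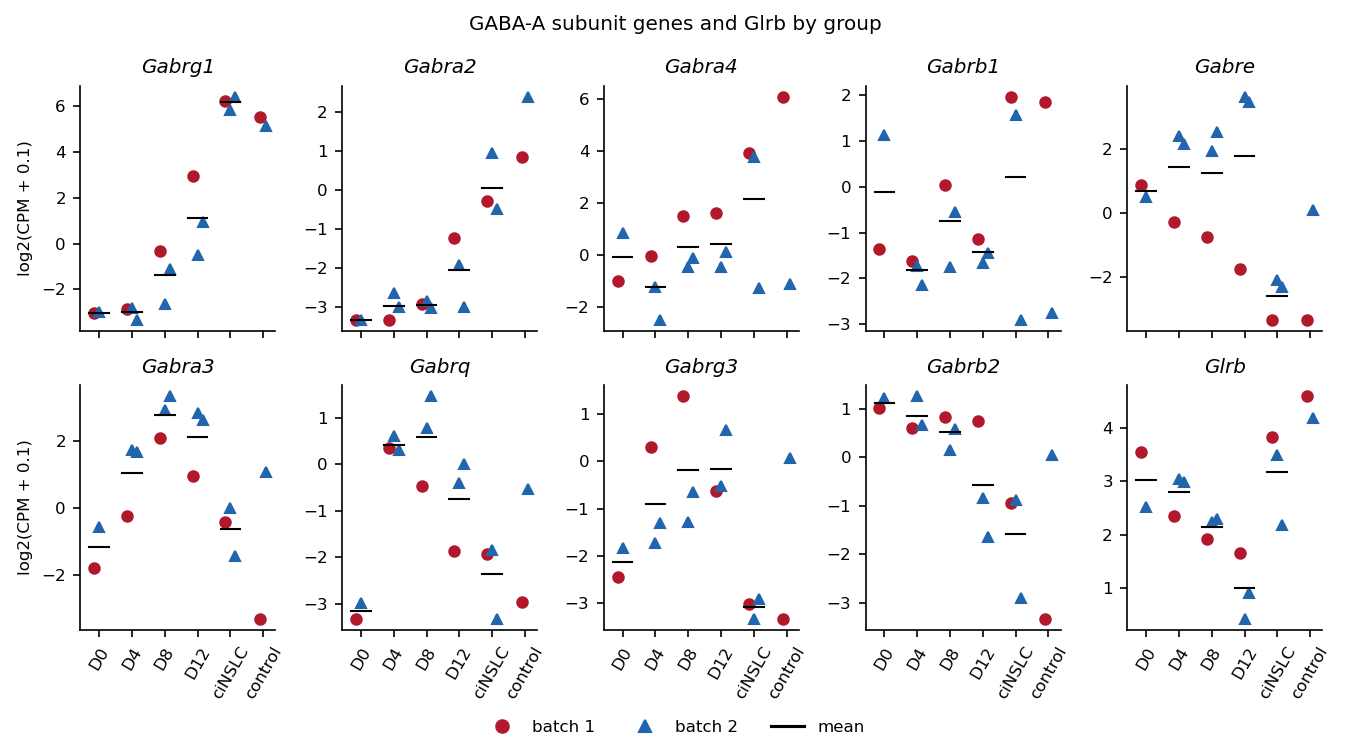
Level of 9 GABA-A subunit genes and Glrb by group, as log2 of TMM-scaled CPM plus 0.1, with 1 point per library (circles batch 1, triangles batch 2) and the mean of each group with replicates (line). Gabrg1 climbs to 58.0 to 84.6 CPM in ciNSLC, Gabra3 is higher in every D8 and D12 library than in ciNSLC, and the circles of Gabre lie below its triangles from D4 to D12.

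The promoters of Gabrg1 and Gabra2, neighbours that both rose, differ in CpG content, and the study's treatment holds the DNA methylation inhibitor RG108. The windows run from 250 bases before to 50 after the start in RefSeq (GRCm38.p6, minus strand, written 5′ to 3′ along the gene), at chr5:70842568-70842867 for Gabrg1 and chr5:71095800-71096099 for Gabra2, and capitals mark each CpG.
Gabrg1: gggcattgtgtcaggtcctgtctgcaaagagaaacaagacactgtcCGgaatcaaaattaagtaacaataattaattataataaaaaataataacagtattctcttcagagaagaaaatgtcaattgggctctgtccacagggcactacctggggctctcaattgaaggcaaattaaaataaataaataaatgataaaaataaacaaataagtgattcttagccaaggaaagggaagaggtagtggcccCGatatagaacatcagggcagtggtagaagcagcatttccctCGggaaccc
Gabra2: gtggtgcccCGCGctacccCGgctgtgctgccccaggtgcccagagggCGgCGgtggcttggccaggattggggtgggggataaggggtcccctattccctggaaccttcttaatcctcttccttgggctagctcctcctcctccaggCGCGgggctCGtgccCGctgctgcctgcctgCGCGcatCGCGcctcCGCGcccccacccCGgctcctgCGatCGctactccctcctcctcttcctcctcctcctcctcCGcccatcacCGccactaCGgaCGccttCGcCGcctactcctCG
The Gabrg1 window holds 3 CpG and 38.3% G and C, and the Gabra2 window 25 CpG and 70.0%. The median was 7 CpG and 52.7% over all 32851 windows of the table, and 11 CpG and 59.0% over the 43 windows of the 36 receptor genes that had one. Both Gabra3 windows hold 0 CpG, Gabre 24, Gabrq 23 and Grik3 50. The left part of the RE1 element bound by the neuronal repressor REST, TTCAGCACC on either strand, was found in 1 receptor window (Grm2) and in 0.371% of all windows. The right part of the element was found in 0 receptor windows and 0.137% of all, and its core, which overlaps both parts, in 0 and 0.0365%. DNA methylation was not measured in these libraries.

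Of the X-linked genes, Gabra3 and Gabrq were higher with treatment than at D0. Gabra3 was 0.187 and 0.573 CPM at D0, 0.753, 3.21 and 3.07 at D4, 4.17, 7.49 and 10.1 at D8 and 1.83, 7.04 and 6.06 at D12. Batch 1 was the lowest on each treated day. The log2 change from D0 was 4.26 (SE 0.89, adjusted p = 0.013) at D8 and 3.72 (SE 0.87, adjusted p = 0.017) at D12. It was 0.650, 0.890 and 0.271 CPM in the ciNSLC libraries, 0 in SCR029 and 2.00 in priNPC. All ciNSLC libraries lay below all D12 libraries (log2 change -3.05, SE 0.71, adjusted p = 0.0073), a call that held under every alternative tried. At D8 and D12 the call was lost without D0 replicate 1 (adjusted p = 0.1) and D0 replicate 1 or 2 (adjusted p from 0.053 to 0.14).

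Gabrq was 0 and 0.0261 CPM at D0, 1.17, 1.42 and 1.14 at D4, 0.618, 1.62 and 2.66 at D8 and 0.176, 0.652 and 0.901 at D12. A single count was found over both D0 libraries, and the ratio to D0 was 109 (95% counting interval 19.3 to 4353) at D4, 149 (95% counting interval 26.5 to 5918) at D8 and 49.9 (95% counting interval 8.66 to 2001) at D12. The adjusted p was 0.014, 0.012 and 0.026. It was 0.163, 0.178 and 0 CPM in the ciNSLC libraries, 0.0284 in SCR029 and 0.596 in priNPC. The calls were lost without D0 replicate 1 or 2 (adjusted p from 0.058 to 0.1) at D4, D0 replicate 1 (adjusted p = 0.086) at D8 and D0 replicate 1 or 2 or D12 replicate 2 or 3 (adjusted p from 0.058 to 0.18) at D12.

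Gabre split by batch. It was 1.75 and 1.30 CPM at D0, 0.715, 5.24 and 4.36 at D4, 0.494, 3.74 and 5.66 at D8 and 0.201, 12.1 and 10.8 at D12. From D4 to D12 replicate 1 lay below both D0 libraries, while replicates 2 and 3, in batch 2, lay above them, and the change from D0 was not called on any day. It was 0, 0.134 and 0.102 CPM in the ciNSLC libraries, 0 in SCR029 and 0.978 in priNPC. It was called lower in ciNSLC than at D12, with a log2 change of -6.76 (SE 1.57, adjusted p = 0.0069). With 0.1 CPM added, the log2 change was -1.59 within batch 1 and -5.74 within batch 2. The size of the fall thus came mostly from D12 replicates 2 and 3. With limma voom the call was lost (adjusted p = 0.13). In the batch 1 libraries of D4, D8 and D12 the fibroblast marker sums were 1462, 2208 and 8993 CPM, where batch 2 ranged from 7775 to 11945 CPM, and mitochondrial rRNA took 52.7%, 49.7% and 33.2% of counts against 16.5% to 28.4%. Their part in the Gabre levels was not tested.

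Gabrg3 on chromosome 7 was 0.0833 and 0.182 CPM at D0, 1.13, 0.203 and 0.304 at D4, 2.50, 0.312 and 0.541 at D8 and 0.553, 0.598 and 1.49 at D12. It was 0.0232, 0 and 0.0339 CPM in the ciNSLC libraries, 0 in SCR029 and 0.954 in priNPC. With 2 counts over the ciNSLC libraries, D12 was higher by a ratio of 42.4 (95% counting interval 11.5 to 355) (adjusted p = 0.0062).

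Gabrb2 on chromosome 11 was 1.92 and 2.24 CPM at D0, 1.43, 2.29 and 1.50 at D4, 1.67, 1.01 and 1.40 at D8 and 1.58, 0.462 and 0.219 at D12, and 0.418, 0.445 and 0.0339 CPM in the ciNSLC libraries, 0 in SCR029 and 0.930 in priNPC. It was lower in ciNSLC than at D0 (log2 change -2.78, SE 0.83, adjusted p = 0.024), but not without D0 replicate 1 or 2 or ciNSLC replicate 3 (adjusted p from 0.053 to 0.079).

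Per kilobase, the make-up of GABA-A subunit mRNA thus differed between groups. Gabre held 21.1% and 8.52% at D0 and Gabrg1 0.249% and 0.169%. On D12 Gabre and Gabra3 held 34.7% and 24.2% in replicate 2 and 29.5% and 19.9% in replicate 3, and 0.619% and 6.82% in replicate 1, where Gabrg1 had 23.1%. In ciNSLC Gabrg1 held 44.1%, 36.1% and 81.3%. All alpha genes together were led by Gabra4 in ciNSLC replicates 1 and 2 and SCR029, with 10.2%, 9.71% and 40.3%, and by Gabra2 in ciNSLC replicate 3 and priNPC, with 1.17% and 9.12%.

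GABA-B receptors are pairs of a GABA-binding subunit (Gabbr1) and a subunit that couples to the G protein (Gabbr2). Gabbr1 was not called in any comparison. It was 19.3 and 12.6 CPM at D0, 12.8, 19.5 and 17.7 at D4, 10.7, 18.3 and 23.1 at D8 and 11.5, 42.2 and 38.9 at D12, and 17.1, 19.0 and 6.57 CPM in the ciNSLC libraries, 4.15 in SCR029 and 33.0 in priNPC. D12 replicates 2 and 3 were the highest of all libraries, and SCR029 the lowest. Gabbr2 was 0 and 0.104 CPM at D0, 0.0753, 0.0609 and 0.0254 at D4, 0, 0.800 and 0.609 at D8 and 0.327, 0.109 and 0.219 at D12. It was 1.63, 0.623 and 1.62 CPM in the ciNSLC libraries, 1.42 in SCR029 and 1.79 in priNPC. The log2 change from D0 was 4.64 (SE 1.45, adjusted p = 0.03) in ciNSLC, lost without D0 replicate 1 or ciNSLC replicate 1 or 3 (adjusted p from 0.052 to 0.17), and 4.94 (SE 1.45, adjusted p = 0.024) in the controls, lost without D0 replicate 1 or priNPC (adjusted p from 0.054 to 0.13).

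Of the glycine receptor genes only Glrb, the beta subunit that binds the scaffold gephyrin, was tested. It neighbours Gria2 on chromosome 3, where both genes span 80488858 to 80717582. Glrb was 11.6 and 5.60 CPM at D0, 4.97, 8.18 and 7.79 at D4, 3.71, 4.64 and 4.78 at D8 and 3.07, 1.25 and 1.78 at D12. All D12 libraries lay below all D0 and D4 libraries, replicates 2 and 3 the most. It was 14, 11.2 and 4.43 CPM in the ciNSLC libraries, 24 in SCR029 and 18.0 in priNPC. The level fell from D0 to D12, with a log2 change of -2.08 (SE 0.50, adjusted p = 0.019), and was higher in ciNSLC than at D12, with 2.28 (SE 0.47, adjusted p = 0.0033), the latter under every alternative tried. The fall was lost without D0 replicate 1 or D12 replicate 2 or 3 (adjusted p from 0.071 to 0.19). Gria2 and Glrb thus moved in opposite directions at D12. The alpha subunits Glra1 to Glra4 had at most 9 counts in a library.

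The 15 receptor genes that were not tested included Gabra5, Gabra6, Gabrd, Gabrp, Gabrr1, Gabrr2, Gabrr3, Grin2c, Glra1, Glra2, Glra3, Glra4, Grm2 and Grm6. None exceeded 9 counts or 0.228 CPM in any library, and all had at least 1 count somewhere. Gabrd, a subunit of receptors outside synapses, had 1 count over the 16 libraries. At these depths 3 counts, the number that a count of 0 allows at 95% confidence, corresponded to between 0.059 and 0.13 CPM per library, counting error only.

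Between ciNSLC and the neural controls the median log2 difference of the 37 tested genes was -0.31, against -0.01 over all genes. Among the widest uncalled differences were Grin2b at -5.51 (SE 1.63, adjusted p = 0.13) and Gabrg3 at -4.34 (SE 1.59, adjusted p = 0.22). SCR029 and priNPC were far apart for Gria4 (0.0284 and 100.1 CPM), Gabra4 (67.5 and 0.358 CPM), Gabrb1 (3.52 and 0.0477 CPM), Grid1 (0.511 and 6.49 CPM) and Grik3 (0.256 and 8.42 CPM).

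Genes that work beside the receptors were described from lists chosen with earlier results of these data known. Of 22 tested enzymes and transporters of the 3 transmitters, 8 were higher and 2 lower in ciNSLC than at D12 (45.5%, where 27.5% of all genes were called, 11% higher and 16.5% lower), with a median log2 change of 0.53 against -0.09 over all genes. The list also holds the chloride transporters Slc12a2 and Slc12a5, which carry none of the 3. The astrocytic glutamate transporter Slc1a2, also an astrocyte marker above, was 35.8, 11.8 and 15.9 CPM at D12 and 554, 569.9 and 56.8 CPM in ciNSLC (log2 change 4.22, SE 0.93, adjusted p = 0.0052). Replicate 3 was the lowest ciNSLC library. The vesicular glutamate transporter Slc17a8 (4.93) and the GABA-degrading enzyme Aldh5a1 (2.00) were also higher, and the GABA-synthesising enzyme Gad2 (-4.65) and the vesicular transporter Slc17a7 (-4.33) lower. Gad2 had at most 1.79 CPM in any library, and Slc32a1, which loads GABA into vesicles, had a count in D8 replicate 3 alone (0.0226 CPM).

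Of 18 tested auxiliary subunits and secreted partners, 7 were higher and 1 lower in ciNSLC than at D12 (44.4%, against 27.5% of all genes), with a median of 1.36. At D12 against D0 7 were higher and 1 lower (44.4%, against 10.5% of all genes), with a median of 2.29. Lhfpl4, which assembles with GABA-A receptors, was 2.19, 0.380 and 0.657 CPM at D12 and 13.5, 23.1 and 16.4 CPM in ciNSLC (log2 change 4.03, SE 0.62, adjusted p = 0.00048). The AMPA receptor partners Cacng5, Gsg1l and Shisa7 (the last also a partner of GABA-A receptors) had log2 changes of 3.85, 3.11 and 2.97. The GABA-B receptor partner Kctd8 was lower, at 0.201, 0.109 and 0.170 CPM at D12 and 0 in all ciNSLC libraries. At D12 the kainate receptor partner Neto1 was higher than at D0 by 6.89 (SE 1.11, adjusted p = 0.0025), from 0.0417 and 0 to 6.81, 1.20 and 1.22 CPM.

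Of 29 tested scaffolds and adhesion genes, 10 were higher and 4 lower in ciNSLC than at D12 (48.3%, against 27.5% of all genes), with a median of 0.61. The 29 and the 10 include the RNA-editing enzyme Adarb1, which is no scaffold or adhesion gene. The presynaptic adhesion gene Nrxn2 was 10.5, 0.842 and 1.68 CPM at D12 and 43.7, 61.2 and 61.2 CPM in ciNSLC, with a log2 change of 3.67. The postsynaptic partner Nlgn3 had a log2 change of 3.05 and Lrrtm3 one of 2.31. The scaffold genes Homer3, Dlg3, Dlgap4 and Dlg1 were lower, with log2 changes of -1.48, -1.25, -0.84 and -0.70. Adarb1, the enzyme that edits the Gria2 pore codon and a gene chosen after its values were seen, was 7.62 and 11.8 CPM at D0, 4.30, 4.43 and 5.62 at D12 and 7.81, 9.34 and 11.0 in ciNSLC. It fell from D0 to D12 (log2 change -1.02, SE 0.26, adjusted p = 0.026) and was higher in ciNSLC than at D12 (log2 change 0.97, SE 0.24, adjusted p = 0.0095).

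Within batches the called changes kept their direction with 1 exception. Of the 83 calls of a receptor gene in a comparison, 82 had the same sign in batch 1 and in batch 2, the exception being Gria4 in the controls. In 4 the libraries of the groups overlapped (Grik1, Grik2 and Grin3a in ciNSLC against D12, and Gria4 in the controls against D0). The calls were made on these same libraries, and D0 and the controls have 1 library per batch. Agreement in sign is therefore largely built in and is no separate check. The same counts were not made over all called genes.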

How the data were processed

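Bulk RNA was measured in 16 mouse libraries. Per the labels' protocols, total RNA was copied with random and poly-T primers and amplified linearly (Ovation v2 kit) and sequenced in pairs. Per the submitters' processing notes, the tools were TopHat2 2.0.13, featureCounts, Subread and edgeR, with the mm9 build. Whether counting used strand is not given in the sources used here. The authors deposited whole-number counts per gene with each gene's exon length, and 48 normalized columns were not used here. The matrix holds 37991 genes, and 415 without a symbol could not be members.

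Counts were scaled by TMM, filtered with filterByExpr and tested with edgeR 4.0.16 (robust glmQLFit, glmQLFTest) in R 4.3.3. The 14 libraries from D0 to ciNSLC were fitted together (17455 genes), and all 16 for the comparisons with the controls, coded as 1 group (17636 genes). P-values were adjusted by Benjamini-Hochberg over all genes tested. Values per kilobase divide CPM by the deposited exon length. Alternatives were other scaling, filters, DESeq2 1.42.0, limma voom 3.58.1, batch or replicate number as a term, fewer groups, and each library left out. Intervals (95%, exact) and floors of 3 counts cover counting error only. The members, marker lists and companion lists were chosen with earlier results of these data known. Every receptor gene called, or with a group mean of at least 5 CPM, is given in every library, and of each companion list up to 4 higher and 4 lower called members of a comparison are named. The replicate block took same-numbered libraries as pairs. Those of D4, D8 and D12 deviated together from their group means (correlations of 0.22 to 0.65). Replicate 1 matched its own number best for each pair of these days. For replicates 2 and 3 a library of another number matched better, except replicate 3 of D4 with D12. Replicate 1 alone was in batch 1, so batch and pairing cannot be told apart, and pairing by number was not established. Libraries numbered 1 are those of batch 1. Some members and companion genes enter the counts and sums but are not reported here by name.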

Additional observations from a re-analysis of the deposited data

Results flagged for a closer look

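Between D12 and D4, which share no libraries, 4 receptor genes differed by the direct test of day 12 against day 4 (edgeR quasi-likelihood test). Gria2 was higher at D12 by a log2 change of 3.37 (adjusted p = 0.04, and 0.051 with the replicate number as a block), Gabrg1 by 6.84 (adjusted p = 0.009), Grik3 by 7.98 (adjusted p = 0.041) and Grm5 by 6.25 (adjusted p = 0.041). Each was higher in 3 of 3 D12 libraries than in every D4 library. Grik3 had no count at D4 and Gabrg1 had 3, so their fitted changes are no bounds.

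Between ciNSLC and the neural controls, Gria3 was higher in ciNSLC by a log2 change of 1.81 (edgeR quasi-likelihood test, adjusted p = 0.019), in 3 of 3 ciNSLC libraries against both controls. By the same test the call was lost with only these groups fitted (adjusted p = 0.11) and without ciNSLC replicate 2 (adjusted p = 0.071). It was also lost with either control alone.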

How the results depend on the processing

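Of 2030 alternative values for the 83 called changes, 1763 kept the call, 265 lost it in the same direction and 2 reversed. Both reversals were Gria4 in the controls against D0, at -3.48 with SCR029 as the only control or without control replicate 2 (priNPC), against 8.19 without control replicate 1. Leaving out a control and keeping the other as the only control are the same fit, so the 2 reversals are 1 fit. Such fits enter the totals above under both names. In 28 of the 83 the call held throughout. Counts of called genes moved by over 1.5 times as follows. With the DESeq2 Wald test they were 8 for D4 against D0, 14 for D8, 17 for D12, 9 for D12 against D4 and 4 for ciNSLC against the controls. With limma voom they were 3 for D8, 6 for D12, 2 for D12 against D4 and 2 for ciNSLC against the controls. With a batch term they were 9 for D8, 9 for D12 against D4 and 2 for ciNSLC against the controls. With only the groups compared they were 3 for D12 against D0, 7 for the controls against D0 and 0 for ciNSLC against the controls, which was also 0 with priNPC as the only control. The cause was not tested.

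With the replicate block the count was 8 for D8 against D0 and 7 for D12 against D4, and within 1.5 times in the other comparisons it was fitted for. The calls it ended were those of Gria2 at D12, against D0 (adjusted p = 0.057) and D4 (adjusted p = 0.051). D0 shares only 2 numbers with the other groups (correlations of 0.12 to 0.22), and for D12 and ciNSLC the third pair correlated at 0. The pairing was thus not established there either.

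Leaving out 1 library gave 1 to 7 genes for D4 against D0, 1 to 9 for D8, 2 to 14 for D12, 0 to 7 for D12 against D4, 13 to 23 for ciNSLC against D0, 11 to 21 against D12, 8 to 19 for the controls against D0 and 0 to 2 for ciNSLC against the controls. A left-out control or D0 library leaves 1 in its group, which is then assumed to vary like the others. At these depths 3 counts equal 0.059 to 0.13 CPM. Tested without the expression filter, the untested genes had adjusted p of 0.11 or higher (edgeR).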
